A study of Mus musculus with 6 samples.

Results

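The Oas family comprises the 2′-5′-oligoadenylate synthetases and the Oas-like proteins, and 8 of its genes (Oas1a, Oas1b, Oas1c, Oas1g, Oas2, Oas3, Oasl1 and Oasl2) were followed here among the 54232 genes of the RNA-seq files. The members were taken by gene symbol, after the Ensembl identifiers were mapped to GENCODE M21, by a rule that applies no threshold to measured values. They were read beside 3 genes of proteins that degrade the product of the synthetases or act with it. The 6 libraries were made from monocytes sorted from the CNS of mixed bone marrow (BM) chimera mice with experimental autoimmune encephalomyelitis (EAE), a mouse model of multiple sclerosis. Irradiated GFP+ recipients had received WT (CD45.1) and Ifnar1-/- (CD45.2) marrow in equal parts. They were immunized 6 to 7 weeks later and were given 30000 IU of IFN-β every day. Both genotypes thus matured and were exposed within the same recipients. In total, 3 libraries were from WT and 3 were from Ifnar1-/- monocytes, and no library came from untreated mice. The sort kept GFP-CD45+CD11b+Ly6Chi cells that lacked Ly6G, which leaves out the recipients' own GFP+ cells. The knockout is germline and so present in every donor cell of that genotype, and CD45.1 went with WT in every library, so that the Ifnar1 genotype and the CD45 allele of the donors cannot be told apart. The comparison asks which part of the family's expression in IFN-β-treated mice went with the monocyte's own type I IFN receptor. The paper reports as many recipients as libraries of each genotype, and every recipient carried both genotypes. The WT and Ifnar1-/- libraries therefore came from a shared set of mice. The labels do not say which mouse each library came from, so the pairs are not known. The main test was unpaired, and its p-values measure the spread between these libraries.

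OAS1, OAS2 and OAS3 proteins bind double-stranded RNA and, once bound, join ATP into 2′-5′-linked oligoadenylates (2-5A). 2-5A is a signal molecule of a classical antiviral arm of the IFN response. Oas genes are among the best known IFN-stimulated genes: type I IFN binds IFNAR1 and IFNAR2, the kinases JAK1 and TYK2 phosphorylate STAT proteins, STAT2 among them, and these join IRF9 in the complex ISGF3, which binds a GAAA-rich element in promoters. In the mouse, the single OAS1 gene of humans is replaced by a cluster of copies, of which Oas1a and Oas1g encode active synthetases and others have lost enzyme activity. The Oas-like proteins carry ubiquitin-like domains, and OASL1 is known as an inhibitor of IRF7 translation.

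The genes lie in 2 groups on chromosome 5 (GRCm38). Oasl2 (114896936 to 114912234) and Oasl1 (114923240 to 114937915) form a pair on the plus strand. Oas2 (120730333 to 120749853), Oas3 (120753098 to 120777661), Oas1c (120800194 to 120812514), Oas1g (120876142 to 120887613) and Oas1a (120896256 to 120907521) lie on the minus strand of the second group. Oas1b (120812635 to 120824163) is on the plus strand between them and is annotated as a polymorphic pseudogene.

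To look for letters of the kind of element that ISGF3 binds, promoters from 250 bases before to 50 bases after the start (RefSeq, GRCm38.p6) were searched on both strands for GAAANNGAAA. RefSeq promoters were found for 6 members, and 4 of them (Oas1a, Oas1c, Oas1g and Oas3) held the letters, against 1131 of the 32851 promoters in the table (3.44%). The 60 bases around the matches are printed on the minus strand, 5′ to 3′, with the matched letters in capitals. The windows are chr5:120907508-120907567 for Oas1a, chr5:120812591-120812650 for Oas1c, chr5:120887594-120887653 for Oas1g and chr5:120777700-120777759 for Oas3.

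Oas1a: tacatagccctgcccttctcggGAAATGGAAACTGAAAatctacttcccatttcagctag
Oas1c: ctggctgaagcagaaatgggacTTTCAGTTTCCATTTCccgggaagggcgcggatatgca
Oas1g: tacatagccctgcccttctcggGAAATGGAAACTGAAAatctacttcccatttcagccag
Oas3: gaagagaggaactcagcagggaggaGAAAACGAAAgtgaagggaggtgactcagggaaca

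In Oas1a and Oas1g, 2 overlapping matches made the 16-base run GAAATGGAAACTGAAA, which begins 20 and 18 bases before the start. The same 16 letters lay on the opposite strand in the Oas1c promoter. There they span chr5:120812613-120812628, which is 7 to 22 bases ahead of the annotated start of the divergent gene Oas1b. The run was found in 7 of the 32851 promoters, of the genes Apol9a, Apol9b, Oas1a, Oas1c and Oas1g. The promoters of Oas1a and Oas1g were identical at 85.3% of aligned positions, whereas all other pairs of the 6 promoters were between 42.0% and 48.7%. The promoters of Oasl1 and Oasl2 did not hold these exact letters in this window. A match is a description of the sequence and no measure of binding.

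Total expected counts were 4531782 to 7321380 for WT and 5442568 to 6916101 for Ifnar1-/- monocytes. The floor of detection was set at 3 counts, worth 0.410 to 0.662 CPM (counts scaled to library size), and covers counting error only. One library stood apart: Rn7s2, a gene for the RNA of the signal recognition particle, took 27.8% of all TPM (a level per transcript length, scaled to a fixed total) in WT library 1, against 7.36% to 11.2% in the other 5 libraries. This lowers the TPM of every other gene in that library, so fold changes were taken from counts with TMM normalization, and results are given without WT library 1 where it matters. Monocyte genes were abundant in all libraries, with a summed level of 7812 to 9622 normalized CPM in WT and 8276 to 9559 in Ifnar1-/- libraries over 8 markers. Ifnar1, the gene that was knocked out, was read at 153, 126 and 111 normalized CPM in WT monocytes and at 109.9, 102 and 109 in Ifnar1-/- monocytes, and because reads were summed over the gene this does not check the labels. Genes passed the test when edgeR's quasi-likelihood test gave an adjusted p no higher than 0.05 and the groups differed 1.5-fold or more. Of 11254 genes tested, 188 were upregulated in WT monocytes (1.67%) and 52 were downregulated (0.462%), and the total of 240 fell to 148 without WT library 3, 119 without Ifnar1-/- library 1 and 120 without Ifnar1-/- library 3.

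All 7 Oas genes that could be tested were upregulated in WT monocytes, against 1.67% of all genes tested. Their median log2 fold change was 4.15, against -0.01 over all genes. Oas1c and Oas1g passed the filter on low counts only through their WT libraries, so the filter favoured this direction for them. With at least 10 counts required in every library, 5 members were tested and all 5 were upregulated, against 173 of 10161 genes. All 7 had every WT library above every Ifnar1-/- library, a separation seen in 11.1% of all genes tested. Oas1b, which was not tested, was also separated, but only by 5 counts in WT library 3 against 4 in Ifnar1-/- libraries 1 and 3. The 7 included 4 of the 24 genes upregulated over 16-fold. Bulk libraries cannot tell fewer expressing cells from less RNA per cell. The plot of normalized CPM by library shows the separation for each member.

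**Figure D1:**
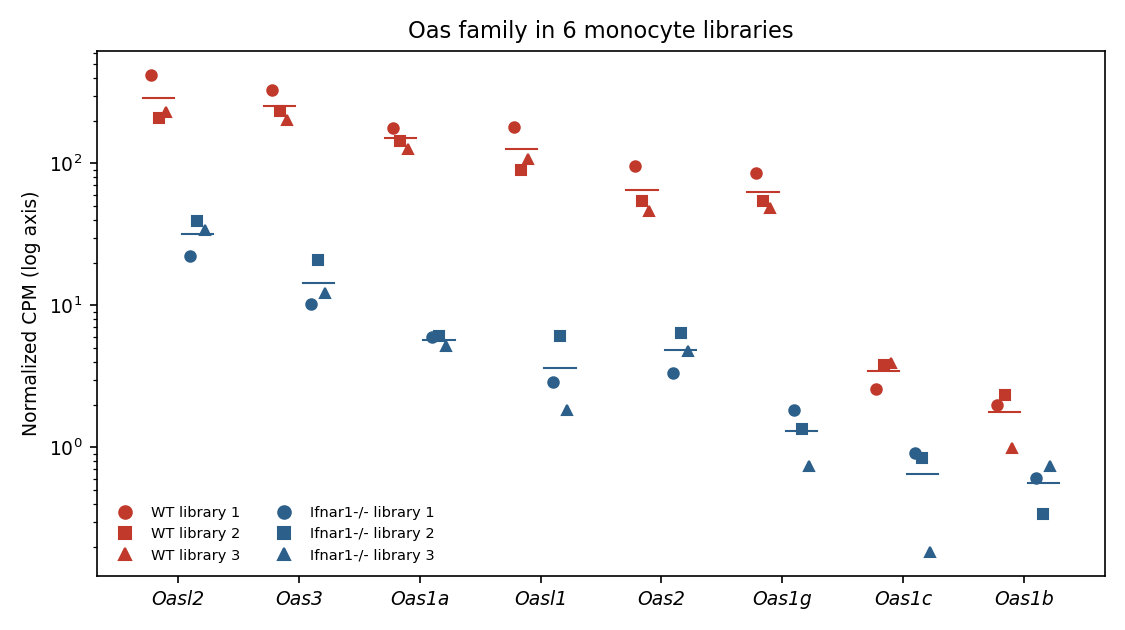
Normalized CPM (log axis) of the 8 Oas members in each of 3 WT (red) and 3 Ifnar1-/- (blue) libraries, with a line at each group mean. Every WT point of an Oas gene lies above every Ifnar1-/- point of that gene; CPM are not divided by gene length, so heights are not comparable between genes.

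Oas1a and Oas1g, the copies that encode active OAS1 synthetases, were separated most widely in the Oas1 cluster. In WT libraries 1, 2 and 3, Oas1a reached 178, 144 and 127 normalized CPM, against 5.96, 6.10 and 5.15 in Ifnar1-/- libraries 1, 2 and 3. The Ifnar1-/- libraries were nearly level, and the lowest WT library was far above them. The means were 149.9 ± 26.1 and 5.74 ± 0.512 (SD, n = 3 each), a 26.0-fold difference (95% interval 19.3 to 35.1). On the log2 scale the difference was 4.70 (SE 0.19, edgeR adjusted p = 2.17e-06), the first of all genes tested when ordered by p.

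Oas1g had 85.8, 54.2 and 48.4 normalized CPM in WT and 1.83, 1.36 and 0.736 in Ifnar1-/- libraries. Of the 7 members in this edgeR test it had the largest fold change, 46.5 (95% interval 27.8 to 77.6), or 5.54 on the log2 scale (SE 0.33, adjusted p = 1.26e-05). Its Ifnar1-/- libraries held only 12.4, 8.05 and 3.73 expected counts, the last of which is close to the floor of 3. Oas1a and Oas1g are near-identical over long stretches: of all 75-base windows, the length of a read, 47.6% of those in Oas1a transcripts (862 of 1811) also occurred in Oas1g, and they made up 36.9% of Oas1g windows. RSEM divided reads between the 2 genes, as their fractional counts show, while their sum was whole in every library (1857, 932 and 890 in WT, and 51.0, 44.0 and 32.0 in Ifnar1-/-). The split between Oas1a and Oas1g is therefore uncertain, and the sum is not. Summed over all Oas1 copies, the level was 269, 204 and 181 CPM in WT and 9.32, 8.64 and 6.99 CPM in Ifnar1-/- libraries, which is 4.70 on the log2 scale (SE 0.21, edgeR adjusted p = 2.63e-06).

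Oas2 and Oas3 encode the larger synthetases, which join more than one OAS unit in a chain. Oas3 had 328, 235 and 203 normalized CPM in WT and 10.2, 20.8 and 12.1 in Ifnar1-/- libraries. WT library 1 was the highest and Ifnar1-/- library 2 stood above the other Ifnar1-/- libraries, with no overlap between groups. The fold change of Oas3 was 17.7 (95% interval 11.4 to 27.7, adjusted p = 2.56e-05 from edgeR). Oas2 had 95.3, 54.4 and 46.6 normalized CPM in WT and 3.36, 6.44 and 4.78 in Ifnar1-/- libraries. Within each group, the libraries of Oas2 stood in the same order as those of Oas3. Its fold change was 13.6 (95% interval 8.23 to 22.3, adjusted p = 0.000138 from edgeR). An uncharacterized gene, Gm43068, overlaps Oas2 on the other strand, and whether reads were counted by strand is not given in the sources used here.

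Oasl1 and Oasl2, the Oas-like genes, differed from each other in size of change. Oasl1 had 179, 90.3 and 107 normalized CPM in WT and 2.90, 6.10 and 1.84 in Ifnar1-/- libraries. Its Ifnar1-/- level was low and uneven between libraries, at 19, 36 and 10 counts. The fold change of Oasl1 was 34.5 (95% interval 18.9 to 62.7, adjusted p = 5.29e-05 from edgeR), and an antisense gene, Gm13822, overlaps it. Oasl2 had 422, 210 and 229 normalized CPM in WT and 22.3, 39.3 and 34.0 in Ifnar1-/- libraries. Every Ifnar1-/- library thus kept a level of Oasl2 well above the floor, with 146 to 232 counts. The fold change of Oasl2 was 9.03 (95% interval 5.64 to 14.4, adjusted p = 0.00029 from edgeR), and its interval lay below those of Oasl1, Oas1g and Oas1a.

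Oas1c and Oas1b, the divergent genes whose starts flank the 16-base run printed above, were at the edge of detection. Oas1c had 2.56, 3.83 and 3.95 normalized CPM in WT (18, 18 and 20 counts) and 0.916, 0.847 and 0.184 in Ifnar1-/- libraries (6, 5 and 1 counts). The groups did not overlap, and WT library 1, the highest for most members, was the lowest WT library for Oas1c. The fold change was 4.99 (95% interval 2.27 to 11.0, adjusted p = 0.0482 from edgeR). This call was lost when any 1 of the 6 libraries was left out (adjusted p = 0.0746 to 0.156 from edgeR). Oas1b had 14, 11 and 5 counts in WT and 4, 2 and 4 in Ifnar1-/- libraries, too few to pass the filter. With no filter, its log2 fold change was 1.62 (adjusted p = 0.247 from edgeR), so a difference was not detectable at this depth. Of the other mouse copies, Oas1d, Oas1f and Oas1h had 0 counts in all 6 libraries and Oas1e had 1 count in Ifnar1-/- library 3, which allows a level of up to 0.410 to 0.662 CPM by the floor of 3 counts. Gm43069 is antisense to Oas1c, and 1.5% of the windows of Oas1c also occurred in Oas1d, Oas1e or Oas1f.

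Without WT library 1, the 6 abundant members all remained upregulated, with log2 fold changes of 4.56 for Oas1a, 5.25 for Oas1g, 3.39 for Oas2, 3.94 for Oas3, 4.76 for Oasl1 and 2.79 for Oasl2 (adjusted p from 2.15e-07 to 3.32e-05, edgeR). That library was the highest WT library for 6 of the 8 members. Among Ifnar1-/- libraries, library 2 was the highest for 5 members and library 3 the lowest for 4.

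The level that remained in Ifnar1-/- monocytes differed between members. The Ifnar1-/- mean, as a percentage of the WT mean in normalized CPM, was 2.08% for Oas1g, 2.88% for Oasl1, 3.83% for Oas1a, 5.64% for Oas3, 7.43% for Oas2, 11.1% for Oasl2, 18.8% for Oas1c and 31.7% for Oas1b. The last 2 rest on at most 6 counts per Ifnar1-/- library. The bar plot of these percentages shows that Oasl2 kept the most among the abundant members.

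**Figure D2:**
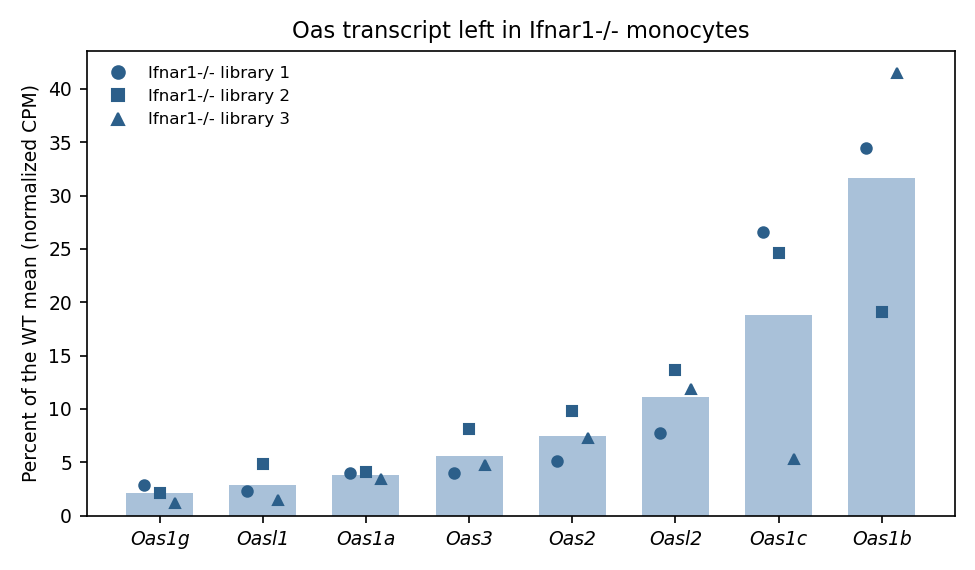
Normalized CPM in Ifnar1-/- libraries as a percentage of the WT mean, with bars for the mean of 3 libraries and points for each library. The remainder runs from 2.08% for Oas1g to 11.1% for Oasl2 among the 6 abundant members, and the points of Oas1c and Oas1b spread widely.

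Summed over the 8 members, the family held 1294, 794 and 766 normalized CPM in WT and 48.1, 81.3 and 59.6 in Ifnar1-/- libraries, a ratio of means of 15.1. On the TPM scale the sums were 484, 410 and 407 in WT and 23.6, 48.5 and 30.8 in Ifnar1-/- libraries, a ratio of 12.6, and rescaling TPM to protein-coding genes gave a ratio of 13.7. Levels can be compared between genes in TPM. In WT monocytes, Oasl2 led with a mean of 169 ± 35.2 TPM (SD, n = 3), above every other member in all 3 libraries. Oas1a (79.9 ± 6.62), Oasl1 (66.1 ± 12.3) and Oas3 (57.8 ± 3.47) came next, and neighbours among these 3 overlapped. Oas1g (41.1 ± 3.39) and Oas2 (17.0 ± 3.15) followed, each apart from its neighbours, and Oas1c (1.56 ± 0.599) and Oas1b (1.23 ± 0.327) overlapped at the bottom. In Ifnar1-/- monocytes, Oasl2 still led with 22.2 ± 9.56 TPM (SD, n = 3). Oas3 (3.51 ± 1.91), Oas1a (3.09 ± 0.481), Oasl1 (2.17 ± 1.35), Oas2 (1.27 ± 0.524) and Oas1g (0.880 ± 0.366) each overlapped with the next in order, which for Oas1g was Oas1b (0.837 ± 0.432). Oas1c was lowest at 0.350 ± 0.0794 and did not overlap with Oas1b.

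The make-up of the family transcript pool was compared between genotypes by each member's share. Oasl2 made up 43.3%, 35.8% and 36.9% of the summed member TPM in WT and 54.6%, 65.9% and 70.5% in Ifnar1-/- libraries. Oas1a made up 15.4%, 21.3% and 19.1% in WT and 12.7%, 7.44% and 8.65% in Ifnar1-/- libraries. All WT libraries lay below all Ifnar1-/- libraries for the share of Oasl2 and above them for Oas1a, by 9.01 percentage points in the mean for Oas1a. The shares of Oasl1 (15.2% against 6.38% in the mean) and Oas1g (9.48% against 2.81%) were also higher in every WT library, whereas those of Oas3 and Oas2 overlapped. The shares of Oas1b (0.291% against 2.81%) and Oas1c (0.371% against 1.10%) were lower in every WT library, on the few counts given above. With 3 libraries a group, a two-sided exact permutation test cannot give a p below 0.1, which was the value for each of the 6 shares that did not overlap (0.133 after Benjamini-Hochberg adjustment over the 8 members). The ratio of Oasl2 to Oasl1 TPM was 2.69, 2.75 and 2.24 in WT and 5.84, 9.17 and 27.1 in Ifnar1-/- libraries (exact permutation p = 0.1), and the last rests on 10 counts of Oasl1. The ratio of Oas1a to Oas1g TPM was 1.67, 2.16 and 2.04 in WT and 2.66, 3.44 and 5.78 in Ifnar1-/- libraries (exact permutation p = 0.1), with the limit that RSEM divided the shared reads. The ratio of Oas3 to Oas2 overlapped between groups (exact permutation p = 0.3). Shares of a whole depend on each other, and no share passed the test.

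**Figure D3:**
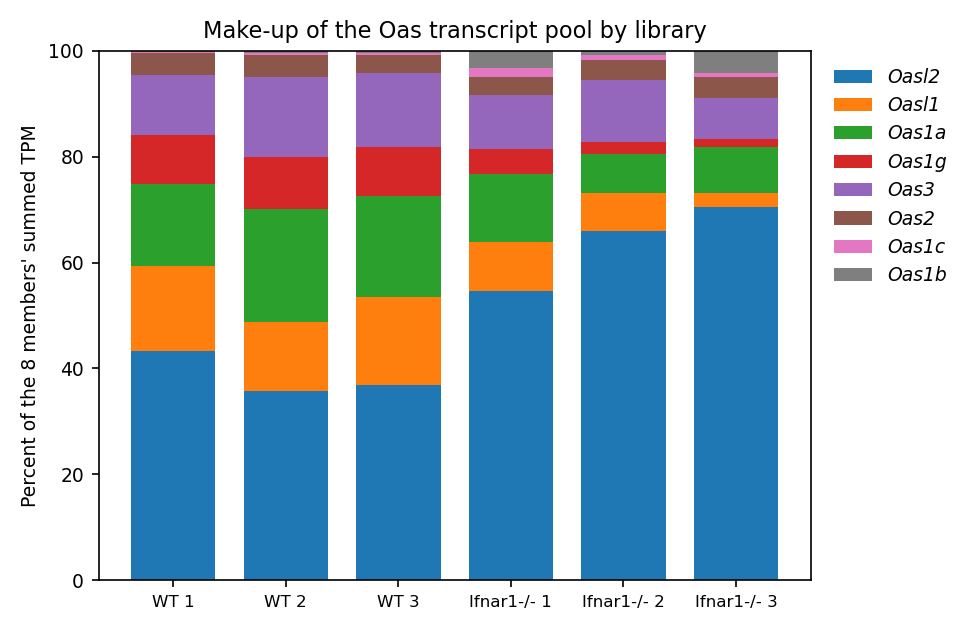
Percentage of the summed TPM of the 8 members taken by each member, in stacked bars for each library. Oasl2 fills 35.8% to 43.3% of the WT bars and 54.6% to 70.5% of the Ifnar1-/- bars.

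Of 3 genes that act with or on 2-5A (Abce1, Pde12 and Akap7), 0 were upregulated and 1 was downregulated in WT monocytes, where 0.462% of all genes tested were downregulated. Abce1, a ribosome recycling factor with a known role in the 2-5A pathway, had 57.1, 63.3 and 61.6 normalized CPM in WT and 105.5, 88.6 and 89.9 in Ifnar1-/- libraries. Every WT library was below every Ifnar1-/- library, by -0.64 on the log2 scale (SE 0.14, edgeR adjusted p = 0.042). The call of Abce1 was lost when any 1 library was left out (adjusted p = 0.0656 to 0.199 from edgeR). Pde12 and Akap7, which encode enzymes that can degrade 2-5A, had log2 fold changes of -0.15 (95% interval -0.52 to 0.21, adjusted p = 0.678 from edgeR) and 0.08 (95% interval -0.26 to 0.41, adjusted p = 0.842 from edgeR).

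Of 6 genes of the route from the receptor to the Oas promoters, only Stat2 was upregulated in WT monocytes, against 1.67% of all genes tested. Stat2 had 189, 123 and 139 normalized CPM in WT and 30.9, 44.1 and 35.3 in Ifnar1-/- libraries, a 4.10-fold difference (95% interval 3.01 to 5.60, adjusted p = 0.000347 from edgeR). Irf9, its partner in ISGF3, differed less and had 105.2, 102.9 and 94.8 normalized CPM in WT and 74.2, 71.0 and 68.6 in Ifnar1-/- libraries, with no overlap and a log2 fold change of 0.50 (adjusted p = 0.0842 from edgeR). Ifnar1, Ifnar2, Jak1 and Tyk2 had log2 fold changes of 0.10 to 0.29, none of which passed the test.

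Of 8 other sensors and binders of double-stranded or Z-form RNA, 6 were upregulated in WT monocytes and 0 were downregulated (1.67% and 0.462% of all genes tested), with a median log2 fold change of 1.35 against -0.01 over all genes. Ddx58 (RIG-I) had 169, 79.3 and 104.6 normalized CPM in WT and 23.1, 22.7 and 22.1 in Ifnar1-/- libraries, a 5.21-fold difference (adjusted p = 0.000564 from edgeR). The RIG-I-like genes Dhx58 (LGP2) and Ifih1 (MDA5) were 3.83-fold and 3.13-fold higher, and Zbp1, a sensor of Z-form nucleic acid, was 2.76-fold higher (adjusted p = 0.000389, 0.00029 and 0.00242 from edgeR). Adar, an editor of double-stranded RNA, and Eif2ak2 (PKR), a kinase that halts translation, were 2.36-fold and 2.28-fold higher (adjusted p = 0.0134 and 0.0117 from edgeR), and both calls were lost without Ifnar1-/- library 1 and without library 3 of that genotype, which left 4 genes. Tlr3, the endosomal sensor, did not pass (log2 fold change 1.21, adjusted p = 0.0657 from edgeR), nor did Mavs, the mitochondrial adaptor of the RIG-I-like proteins (0.21, adjusted p = 0.654 from edgeR). DESeq2, which called 354 of 11254 genes upregulated, called Tlr3 (adjusted p = 0.0291), as did edgeR with no filter (adjusted p = 0.00462). The upper ends of the 95% intervals of Dhx58, Ifih1, Zbp1, Adar and Eif2ak2 lay below the lower ends of those of Oas1a, Oas1g, Oas2, Oas3, Oasl1 and Oasl2, as the plot of fold changes shows. The interval of Ddx58 (1.82 to 2.94) overlapped that of Oasl2, and the interval of Oas1c (1.18 to 3.46) overlapped those of all 6 sensors called. The difference between genes was not itself tested.

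**Figure D4:**
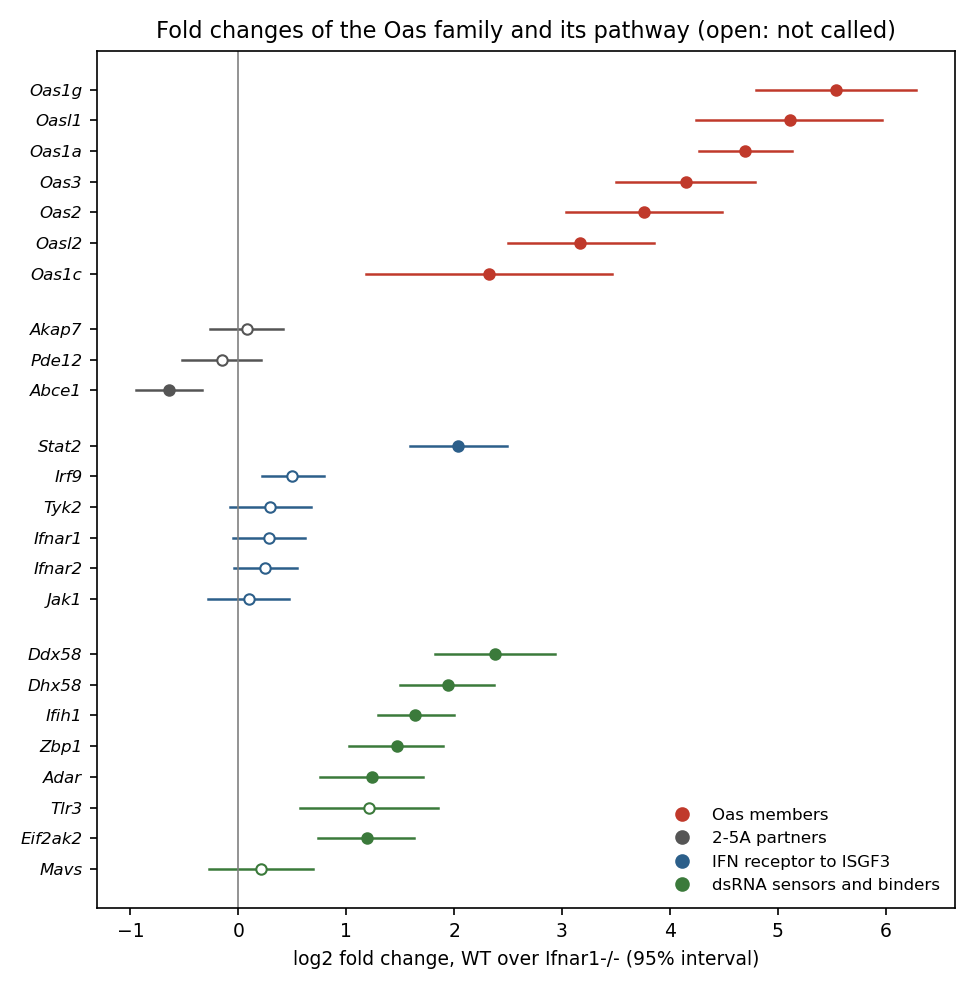
Log2 fold change (WT over Ifnar1-/-) with 95% intervals for tested Oas members, 2-5A partners, genes from the IFN receptor to ISGF3, and other RNA sensors and binders; filled points passed the test. The 7 Oas genes lie between 2.32 and 5.54, and Stat2 and 6 sensors lie between 1.19 and 2.38.

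Genes around the family were also read. Within 250 kb of an Oas gene, 51 other genes were annotated, of which 17 had enough counts to be tested, and 0 passed the test in edgeR, DESeq2 or limma-voom, with 4 at an unadjusted p under 0.05 in each. With 1.67% of all genes upregulated and 0.462% downregulated, a count of 0 among 17 genes is near the background. In edgeR, an unadjusted p of 0.0553 stood at place 2143 of the 11254 genes ordered by p. The 4 genes of 17 under 0.05 are therefore also near the background of that test. The log2 fold changes of the 17 genes ran from -0.50 to 0.55, with a lowest adjusted p of 0.16 from edgeR. Their median was 0.23, above the -0.01 over all genes tested, and this difference was not tested. The plot of fold change by distance shows the Oas genes above flanking genes on both sides.

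**Figure D5:**
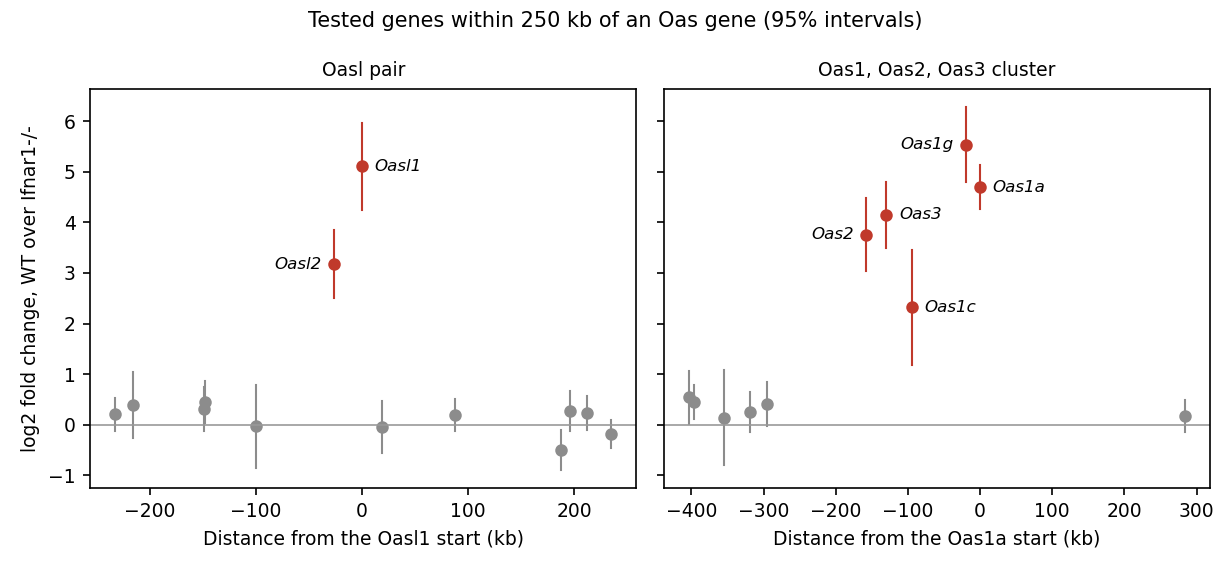
Log2 fold change (WT over Ifnar1-/-, 95% intervals) against distance in kb from the start of Oasl1 (left) and Oas1a (right), with Oas members in red and other tested genes in grey. The Oas genes lie between 2.32 and 5.54, and the 17 other genes between -0.50 and 0.55.

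To place the family among other genes, the mean profile of the 7 tested members over the 6 libraries (log2 normalized CPM, centred) was compared with that of each gene by the root mean square difference. The 5 nearest genes were Ifi208 (0.141), Phf11d (0.214), Mx1 (0.216), Irf7 (0.217) and Rtp4 (0.28), against a median of 2.0 over the genes ranked. Their log2 fold changes were 4.16, 3.99, 4.47, 4.08 and 3.92. These lie inside the range of the Oas genes, which the choice by likeness largely set in advance. Among the members themselves, Oas3 (0.203) was nearest to the family mean and Oas1c (1.13) was farthest, with 71 genes outside the family nearer than Oas1c. These values describe likeness over 6 libraries that share one contrast.

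Some markers of other cells moved with genotype. The summed level of 8 T cell markers was 21.5 to 48.9 normalized CPM in WT and 8.98 to 20.9 in Ifnar1-/- libraries. For 5 of the 8 markers every WT library lay above every Ifnar1-/- library, a separation seen in 11.1% of all genes tested. Of these markers, 0 passed the test in edgeR and 6 had an unadjusted p under 0.05, and DESeq2 called 2, Cd3e and Cd3g. Over all 11254 genes tested, an unadjusted p of 0.0553 from edgeR stood at place 2143 in order of p. DESeq2 called 354 of the 11254 genes upregulated and 115 downregulated in WT monocytes. The summed level of 5 B cell markers was 1.49 to 1.78 in WT and 0.305 to 1.10 in Ifnar1-/- libraries, with Pax5 at 0 counts. Nearly all of it was Cd79b, with 11, 7 and 7 counts in WT and 2, 4 and 5 in Ifnar1-/- libraries. The other markers had at most 1 count in any library, and 0 of the 5 passed the filter for testing. The part of T and B cells in the Oas differences was not tested. The sums of plasmacytoid dendritic cell markers (73.1 to 101.5 in WT, 60.1 to 81.1 in Ifnar1-/-), neutrophil markers (329.6 to 2178, 846 to 2449), microglia markers (255 to 327, 295 to 373) and oligodendrocyte and neuron markers (44.0 to 56.5, 42.7 to 49.7) overlapped between groups. Of the 8 monocyte markers, Ly6c2, the gene of a protein used in the sort, was upregulated in WT monocytes (log2 fold change 1.40, adjusted p = 0.00957 from edgeR). Ccr2 had a mean of 643 normalized CPM in WT and 989 in Ifnar1-/- monocytes, with every WT library below every Ifnar1-/- library, but did not pass in edgeR (log2 fold change -0.62, adjusted p = 0.143), whereas DESeq2 called 3 of the 8, Ly6c2, Ccr2 and Fcgr1.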

How the data were processed

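The authors mapped paired-end reads of 75 bases to GRCm38, and the deposited files hold RSEM expected counts, TPM and effective lengths per gene. The deposited expected counts are estimated counts with no normalization, and the authors' deposited TPM are divided by length and sum to one fixed total per library. The submitters' processing notes list RSEM 1.2.31 and STAR 2.6.0c. The labels and the methods name different library kits. Of 54232 identifiers, 54079 matched GENCODE M21. The 8 members and the gene lists were chosen with earlier results of these data known. Results for some single genes of the lists are not reported here.

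Expected counts were rounded and tested with edgeR 4.0.16 (R 4.3.3) after TMM normalization and the filterByExpr filter (minimum count 10); quasi-likelihood p-values of 11254 genes were adjusted by Benjamini and Hochberg's method, without a block. Intervals are 95%. Genes named are the members, the fixed lists and the 5 genes nearest in profile; genes that overlap members and those sharing a promoter run were named after their values or sequences were seen. Shares and ratios were compared by two-sided exact permutation tests. DESeq2 1.42.0, limma 3.58.1 (voom, or log2 TPM with a pseudocount of 1 or 0.1), other scalings, filters, a replicate block and leaving out each library were alternatives; TPM rescaled to protein-coding genes, and the alternatives for Abce1, were added after seeing the data. The edgeR test was tested on simulated data. Totals of 4531782 to 7321380 counts limit the precision for genes with few counts.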

Additional observations from a re-analysis of the deposited data

How the results depend on the processing

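Over 20 alternatives, the number of Oas genes called stayed between 5 and 7. It was 6 without each single library, and 5 with at least 10 counts in every library, a filter that removes Oas1c and Oas1g before the test. Oas1a, Oas1g, Oas2, Oas3, Oasl1 and Oasl2 were called in every alternative in which they were tested. Oas1c lost its call in 12 of 18 alternatives, with log2 fold changes of 0.90 to 2.66 (adjusted p = 0.00259 to 0.156). The summed Oas1 copies ranged from 4.53 to 4.85 on the log2 scale, and the difference in the Oas1a share of summed TPM from 6.68 to 10.7 percentage points. Abce1 lost its call in 12 of 19 alternatives. The number of all genes called was 240, and it was 469 with DESeq2, 872 with no filter, 128 and 124 with limma on log2(TPM + 1) and log2(TPM + 0.1), and 119 to 245 without single libraries. Oas1b had no value in the alternatives whose filter removed it.

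The labels number libraries from 1 to 3 in both groups without saying what a number shares. The deposited names carry other numbers, of a meaning not given in the sources used here. The paper reports as many recipients as libraries of each genotype, but does not state whether each library came from a single mouse. Deviations of same-numbered libraries correlated by 0.0906, 0.0278 and 0.275. WT libraries 2 and 3 correlated best with the Ifnar1-/- library of their own number, and WT library 1 with Ifnar1-/- library 2 (0.092). Pairs of unlike number ran from -0.196 (WT library 1 with Ifnar1-/- library 3) to this 0.092. Whether same-numbered libraries share a mouse was not tested. With the number as a replicate block, 182 genes were upregulated and 38 downregulated, 6 Oas genes were called, and Oas1c (adjusted p = 0.0783) and Abce1 (adjusted p = 0.0794) were not. With the block in DESeq2, 6 Oas genes were also called.

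Depth limits what can be said of Oas1b, Oas1c and the Ifnar1-/- levels of Oas1g and Oasl1, and the absence of untreated mice leaves no baseline for any member.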

Other observations

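The effective length that RSEM assigns to a gene, which depends on the isoforms it estimates, varied between libraries for some members. Its largest value over the 6 libraries divided by the smallest was 3.47 for Oas1c and 3.28 for Oas1b, the least abundant members, and 1.76 for Oasl1, against 1.02 for Oas1a. TPM divides by this length, so the TPM of Oas1c and Oas1b, and to a lesser degree Oasl1, move with the isoform estimate. For Oas1b, the effective length was 1642 and 1633 bases in WT libraries 1 and 2 and between 501 and 789 bases in the other 4 libraries. For Oas1c it was 609 bases in Ifnar1-/- library 3, which had 1 count, and 2086 to 2117 bases in the other libraries.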
